A study of Mus musculus with 12 samples.

Results

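Whole blood taken 24 h after the last dose of CPI-0209 was compared with whole blood taken 6 h after it. The comparison used 6 of the series' 12 libraries: the 3 labelled 24 h and the 3 labelled 6 h. These were chosen by the time label alone, and the difference was tested in all 13384 genes with enough counts. CPI-0209 (tulmimetostat) inhibits EZH2 and EZH1, the enzymes of Polycomb repressive complex 2 (PRC2). All animals were CB17-SCID mice carrying a xenograft of the human bladder cancer line HT1376. Both groups had received 35 mpk (mg per kg) of the compound by mouth once a day for 11 days, so every mouse in this comparison was treated. They differed in the time from the last dose to the bleed. The remaining libraries, 3 from vehicle-treated mice and 3 taken 1 h after the last dose, entered the same fit and are given beside the results. The labels give no clock time, so time after the dose and time of day cannot be told apart. They do not say whether replicates shared a cage or a day, so p-values measure only the spread between these libraries, which may in part be technical.

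PRC2 methylates histone H3 on a lysine residue, and genes that carry this mark are held silent. In blood, the complex is known for its part in the growth and differentiation of progenitor cells. Whole blood RNA comes from white cells, platelets and reticulocytes, the young red cells that have lost their nucleus and still hold RNA for globins, membrane proteins and haem enzymes. SCID mice lack mature T and B cells because they cannot join antigen receptor gene segments, and keep red cells, platelets, neutrophils, monocytes and natural killer (NK) cells. The 6 libraries matched this. Ms4a1 and Cd79a, which define B cells, had 0 counts in all 6, and Cd3e, of the T cell receptor complex, had 0 to 1. Slc4a1 (red cells) had 12027 to 58080 counts, Csf3r (neutrophils) 9714 to 24561, Pf4 (platelets) 1496 to 2916 and Ncr1 (NK cells) 278 to 525. Alb, of liver, had 0 to 4.

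Library totals ran from 6496573 to 7653753 counts at 24 h and from 8753317 to 9978215 at 6 h. TMM factors were 0.766 to 0.812 at 6 h and 1.33, 1.21 and 0.856 in 24 h replicates 1, 2 and 3. The libraries at 24 h stood further apart than those of any other group. The median standard deviation of a gene over 3 replicates was 0.40 on the log2 scale at 24 h, against 0.29 at 6 h, 0.27 in vehicle and 0.25 at 1 h. The mean log2 CPM (CPM, counts scaled to library size with TMM factors) of 52 genes of reticulocytes and red cells was 8.61, 8.52 and 8.50 in 6 h replicates 1 to 3. At 24 h it was 6.76, 7.21 and 8.15, so that replicate 3 lay nearest to the 6 h libraries, while vehicle ran from 7.19 to 7.49 and 1 h from 7.67 to 7.88. In bulk blood, fewer reticulocytes and less RNA per reticulocyte cannot be told apart.

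At 24 h, genes called lower than at 6 h included members of the red cell membrane, adult globin, haem synthesis and bicarbonate transport lists. Members of the lipid synthesis, interferon-stimulated and integrated stress response lists were also among them, the last with 2 of 24 genes. The genes called higher belonged to few of the lists examined, and included the transcription factors Klf11 and Klf10, the receptor Lifr and the lipid droplet gene Plin2. By edgeR's quasi-likelihood test with Benjamini-Hochberg adjustment over all genes, 235 of 13384 genes (1.76%) differed at an adjusted p under 0.05. Of these, 68 (0.508%) were higher at 24 h and 167 (1.25%) were lower. Their median log2 fold changes were 1.27 and -1.23, beside 0.04 for all genes tested. At an unadjusted p under 0.05 there were 2957 genes, 1374 higher and 1583 lower, and the smallest adjusted p was 0.0129, in Ifi27.

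**Figure D1:**
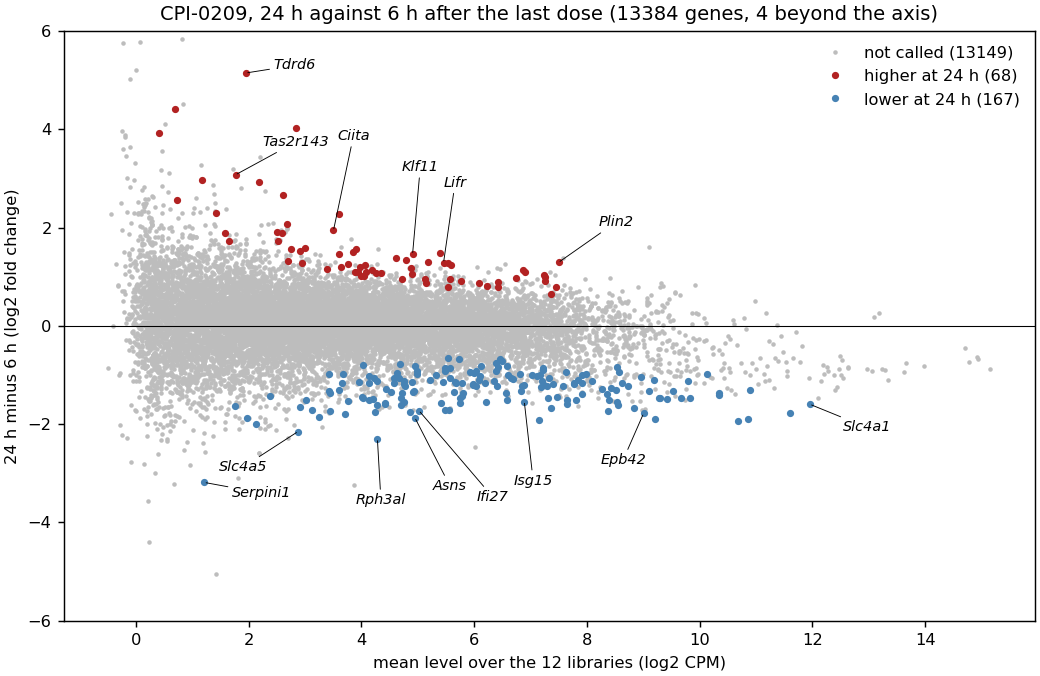
Log2 fold change between 24 h and 6 h (vertical axis) against the mean level over the 12 libraries (horizontal axis, log2 CPM) for 13384 genes. The 68 genes called higher are red, the 167 called lower are blue, and the blue points extend to higher levels than the red ones, whose largest values are at low levels.

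The calls were sensitive to single libraries. Without 24 h replicate 3 the count of called genes went from 235 to 2243 (811 higher, 1432 lower), and all 235 were among them. Without 24 h replicate 1, 24 h replicate 2 or 6 h replicate 3 it was 0, with 1963, 2514 and 2323 genes at an unadjusted p under 0.05. Without 6 h replicate 1 there were 2 calls (Ifi27 and Rph3al), and without 6 h replicate 2 there were 13. A fit of the 6 libraries alone called 0 genes in edgeR, with a smallest adjusted p of 0.114 and 1963 genes at an unadjusted p under 0.05, while DESeq2 and limma-voom on all 12 libraries called 1125 and 729. With the mean reticulocyte level as a covariate edgeR also called 0 genes (1012 at an unadjusted p under 0.05). That level was 8.50 to 8.61 in the 6 h libraries and at most 8.15 in any other library. The covariate therefore overlaps with the 6 h group, and losing a call with it can come from lost power alone. The part of reticulocytes in the lost calls was not tested. In all these fits every one of the 235 genes that was tested kept the sign of its difference, except Ttn with the covariate.

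The 24 h values also had an order that many called genes shared. Replicate 3 was the 24 h library nearest to the 6 h level in 155 of the 167 genes called lower (92.8%) and in 52 of the 68 called higher (76.5%). Over all genes tested, replicate 3 was the highest of the 24 h libraries in 36.6% and the lowest in 39.8%. The 12 lower genes outside this order included Slc4a5, Rragd, Rraga, Hbb-bt and Nars, and the 16 higher ones included Arhgef37, Inpp5f, Abl2 and Sf3b2. Of these 9, the ones outside the naming rule were picked with their values known. All 3 values at 24 h lay below all 3 at 6 h in each of the 167 lower genes, and above in 67 of the 68 higher genes. Over all genes, 12% lay below in this way and 10.5% above. The called genes were picked by a test on the same libraries, so their separation is no separate result.

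**Figure D2:**
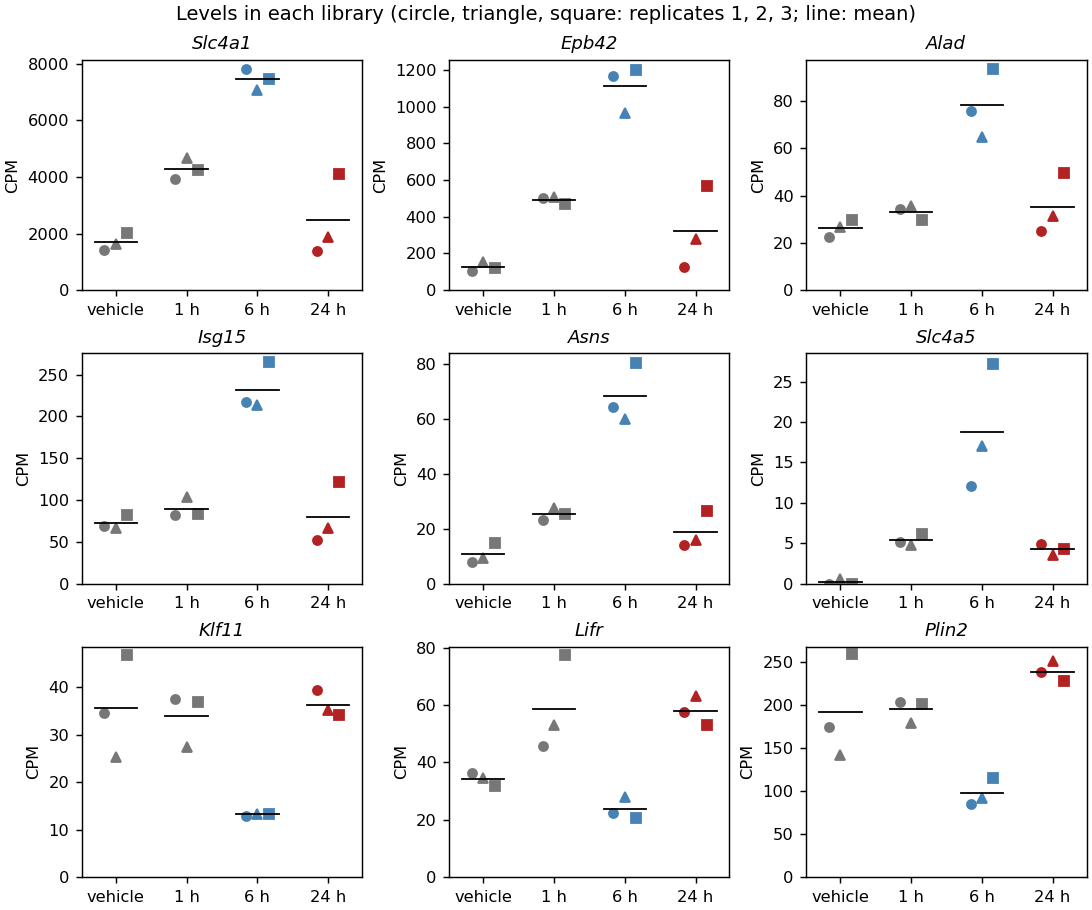
Levels of 9 genes (CPM, linear axis from 0) in each library of the 4 groups; circles, triangles and squares are replicates 1, 2 and 3, and lines are means. In Slc4a1, Epb42, Alad, Isg15 and Asns the 24 h replicate 3 lies between the 6 h libraries and the other 24 h libraries, whereas the 24 h values of Klf11, Lifr, Plin2 and Slc4a5 lie close together.

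Genes of the red cell membrane and its skeleton were among those called lower at 24 h. Of 26 tested, 7 fell and 0 rose, beside 1.25% called lower of all genes. The median log2 fold change was -1.18 and all 26 differences were negative. In 18 of the 26 all 24 h values lay below all 6 h values, as in 12% of all genes. Slc4a1, the anion exchanger that carries chloride and bicarbonate across the red cell membrane (GRCm38 chromosome 11, 102348824 to 102366203), had 7815, 7073 and 7466 CPM at 6 h and 1400, 1887 and 4115 at 24 h. The groups did not overlap, although 24 h replicate 3 had more than 2 times the level of the others. Its log2 fold change was -1.59 (SE 0.32, adjusted p = 0.0324).

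Epb42, a protein that ties the anion exchanger to the skeleton, had 1169, 966 and 1199 CPM at 6 h and 127, 279 and 565 at 24 h (log2 fold change -1.78, SE 0.37, adjusted p = 0.0373). Its 24 h libraries thus spanned more than 4-fold and still lay below every 6 h library. Ank1, the ankyrin that anchors spectrin (-1.39, SE 0.26), and Sptb, the beta chain of spectrin (-1.29, SE 0.28), fell as well. Also among the 7 were Tmod1 (-1.55), which caps actin filaments, and Kel (-1.36), a surface endopeptidase and blood group antigen, both named after their values were seen. Sptb and Ank1 overlap other genes, Plekhg3 among them for Sptb and Mir486 for Ank1, and no source used here gives the strand used in counting.

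Globins, the enzymes of haem synthesis and proteins that act in reticulocyte maturation were lower in part. Of 4 adult globin genes, 2 were called lower, beside 1.25% of all genes. The 4 together made up only 0.338% to 0.455% of counts at 6 h and 0.219% to 0.283% at 24 h. Whether these small shares reflect the globin RNA of the blood or a loss before sequencing was not tested. Hbb-bt went from 23.0, 34.0 and 30.2 CPM at 6 h to 11.8, 10.2 and 9.53 at 24 h (-1.47, SE 0.28, adjusted p = 0.0269), and its 24 h replicates did not follow the order of the red cell membrane genes. Hbb-bs went from 1648, 1863 and 1624 CPM to 481, 501 and 878 (-1.47, SE 0.33, adjusted p = 0.0428). Hba-a2 (-1.50, adjusted p = 0.24) and Hba-a1 (-0.47, adjusted p = 0.39, or 0.03 with library totals alone) did not pass. The alpha genes are near-identical copies of each other, as are the beta genes, so the split of reads within each pair is uncertain.

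Of 13 genes of haem synthesis, 3 fell, beside 1.25% called lower of all genes, and the median was -0.90. Among them were Alad (-1.15, SE 0.23, adjusted p = 0.0324) and Urod (-1.59, SE 0.36, adjusted p = 0.0447), which catalyse an early and a later step on the way from aminolaevulinic acid to haem. Alad had 75.9, 64.8 and 93.8 CPM at 6 h and 25.1, 31.5 and 49.5 at 24 h, again with 24 h replicate 3 the nearest to 6 h. Alas2, which starts the pathway in red cells, had -0.88 (adjusted p = 0.14) and Fech, which inserts the iron, -0.87 (adjusted p = 0.13), neither past the threshold, and both were picked with their values known. With the reticulocyte covariate they had 0.19 and 0.23. Among 20 genes of iron handling and haem breakdown 0 were called in edgeR (6 lower at an unadjusted p under 0.05, 3 lower in DESeq2), the median was 0.01, and 11 differences were positive.

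Of 22 genes of reticulocyte maturation and clearance, Trim10 and Xpo7 fell (median -0.88), beside 1.25% called lower of all genes. Trim10, a protein needed for terminal red cell differentiation, had 1239, 1169 and 1420 CPM at 6 h and 156, 270 and 612 at 24 h (-1.88, SE 0.38, adjusted p = 0.0324). Xpo7, a nuclear export factor abundant in late erythroblasts, had -1.41 (SE 0.31, adjusted p = 0.0407). Of 18 erythroid transcription factors only E2f2, also a cell cycle regulator, was called lower (-1.74, SE 0.34, adjusted p = 0.0296). In this list 13 differences were negative, with a median of -0.36. All 24 h values lay below all 6 h values in 8 of the 18, beside 12% of all genes, and above them in 1, beside 10.5%. Gata1, the master regulator of the lineage, had 194, 172 and 176 CPM at 6 h and 86.2, 87.3 and 145 at 24 h, with -0.77 and an adjusted p of 0.0565. Genes outside these lists that were called lower, named after their values were seen, included Eif2ak1, the kinase that slows translation when haem is short (-0.99), the transporter Abcg2 (-1.60), and the mitophagy and autophagy genes Pink1 (-1.21), Sqstm1 (-1.16) and Calcoco1 (-1.32).

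**Figure D3:**
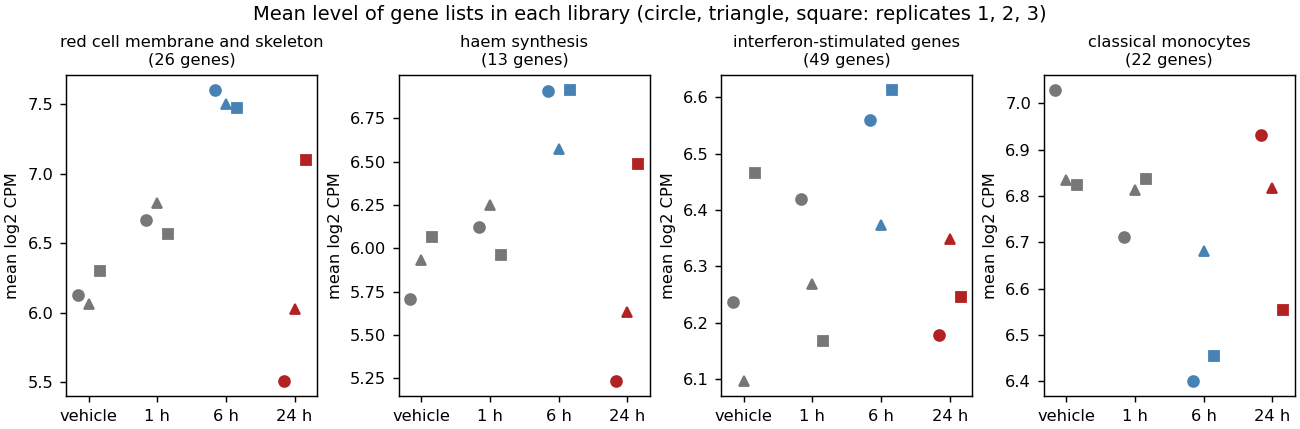
Mean log2 CPM of 4 gene lists in each library (the vertical axes differ between panels and do not start at 0). For the red cell list the 6 h libraries lie at 7.47 to 7.60 and the 24 h libraries at 5.51, 6.03 and 7.10, a wider span than in vehicle (6.06 to 6.30) or at 1 h (6.57 to 6.79).

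Leaving out 24 h replicate 3 gave 24 of 26 red cell membrane genes, 18 of 22 maturation genes, 10 of 13 haem synthesis genes and 2 of 4 globins called lower. That fit called 1432 of all 14089 genes lower. Leaving out either of the other 24 h libraries or any 6 h library gave 0 calls in each of these lists. Without 24 h replicate 3 the medians of the red cell membrane and skeleton, reticulocyte maturation and clearance and haem synthesis lists were -1.84, -1.47 and -1.48, and without 24 h replicate 1 they were -0.81, -0.57 and -0.59. With the reticulocyte level as a covariate, which was built from the red cell, maturation and globin genes, the medians of the membrane, maturation and haem lists were -0.02, 0.18 and 0.04, and 0 genes were called. Where libraries were scaled by their totals alone, the median of all genes moved to 0.56. The red cell membrane list then had 15 genes lower, beside 259 of all 13384 genes. Its median was -0.81, which is 1.37 below that of all genes.

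The promoters of Trim10 and Kel are shown because both genes fell and both windows hold AGATAA, a form of the site bound by GATA factors. The windows end at the gene's start in RefSeq (GRCm38.p6 table) or, where the GENCODE gene begins earlier, before it, and run 5′ to 3′ on the gene's strand. Capitals mark the match, which in Trim10 is read on the other strand, as TTATCT.
Trim10 (GRCm38.p6 chr17:36869324-36869573, plus strand): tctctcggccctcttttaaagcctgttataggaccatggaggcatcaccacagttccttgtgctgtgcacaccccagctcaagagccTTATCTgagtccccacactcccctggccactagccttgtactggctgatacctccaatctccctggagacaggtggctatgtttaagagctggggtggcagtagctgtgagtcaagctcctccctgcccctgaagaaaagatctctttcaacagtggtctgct
Kel (GRCm38.p6 chr6:41704340-41704575, minus strand): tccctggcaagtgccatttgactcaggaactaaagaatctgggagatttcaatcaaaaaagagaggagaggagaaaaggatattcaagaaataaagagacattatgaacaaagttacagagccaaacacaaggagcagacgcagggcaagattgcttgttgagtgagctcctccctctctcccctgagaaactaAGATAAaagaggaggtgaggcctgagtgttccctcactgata
Of the 15 genes called lower in the red cell, maturation, globin, haem and erythroid factor lists, 10 had a promoter in the table and 4 held AGATAA on either strand in the 250 bases before the start: Epb42, Hbb-bs, Kel and Trim10. The share was 9.23% among all genes called lower with a promoter (12 of 130), 8.11% among those called higher, 6.08% among the tested genes and 10.3% among all 27025 promoters of the table.

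Interferon-stimulated genes were lower at 24 h in part. Of 49 tested, 5 fell and 0 rose, beside 1.76% of all genes called, with a median of -0.22 and 33 negative differences. These genes are switched on by type I interferon through a complex of STAT proteins and IRF9. Isg15, a ubiquitin-like protein that is joined to other proteins (chromosome 4, 156199424 to 156200818), had 217, 213 and 265 CPM at 6 h and 51.6, 66.9 and 121 at 24 h. All 24 h libraries were below all 6 h libraries, and vehicle had 68.7, 66.0 and 81.7. Its log2 fold change was -1.54 (SE 0.25, adjusted p = 0.0201).

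Oas3, a sensor of double-stranded RNA that makes short adenylate chains, had 798, 768 and 843 CPM at 6 h and 382, 349 and 440 at 24 h (-1.04, SE 0.18, adjusted p = 0.0224). Its replicates within each time lay closer together than those of Isg15. Usp18, which takes Isg15 off proteins and damps interferon receptor signalling, fell by 1.16 (SE 0.22, adjusted p = 0.0296), and Irf7, a transcription factor that amplifies interferon production, fell by 0.83 (SE 0.17, adjusted p = 0.0337). The fifth was Ifit1, which binds RNA lacking a host-type cap (-1.07, SE 0.23, adjusted p = 0.0395), and was named after its values were seen, as was Ifi27. Ifi27, an interferon-inducible mitochondrial protein outside the list, had 61.5, 55.2 and 81.4 CPM at 6 h and 16.4, 17.8 and 25.9 at 24 h (-1.73, SE 0.21, adjusted p = 0.0129).

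Not all of the list moved this way. Mx2, a dynamin-like antiviral GTPase, had 1.94, 1.73 and 2.57 CPM at 6 h and 6.29, 7.80 and 3.91 at 24 h (1.53, SE 0.43, adjusted p = 0.0729), and did not pass. It was picked with its values known. The mean log2 CPM of the list was 6.56, 6.37 and 6.61 at 6 h and 6.18, 6.35 and 6.25 at 24 h. With 24 h replicate 3 left out, 13 genes were lower and 4 higher, beside 1432 lower and 811 higher of all 14089 genes in that fit. With the reticulocyte covariate Isg15 had -0.59 (adjusted p = 0.612) and Oas3 -0.77 (adjusted p = 0.605). With library totals alone 6 were lower and 10 higher, beside 259 lower and 2692 higher of all 13384 genes. The median of the interferon-stimulated genes was then 0.33, or -0.23 relative to all genes.

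The promoters of Isg15 and Oas3 are shown with matches to the core of the interferon-stimulated response element (GAAA, any 2 bases, GAAA) in capitals. The matches in Isg15 overlap each other.
Isg15 (GRCm38.p6 chr4:156200819-156201068, minus strand): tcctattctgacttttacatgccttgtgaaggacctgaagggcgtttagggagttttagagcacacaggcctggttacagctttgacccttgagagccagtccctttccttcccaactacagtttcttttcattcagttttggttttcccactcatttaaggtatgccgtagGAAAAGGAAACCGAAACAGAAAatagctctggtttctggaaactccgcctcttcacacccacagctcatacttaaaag
Oas3 (GRCm38.p6 chr5:120777662-120777909, minus strand): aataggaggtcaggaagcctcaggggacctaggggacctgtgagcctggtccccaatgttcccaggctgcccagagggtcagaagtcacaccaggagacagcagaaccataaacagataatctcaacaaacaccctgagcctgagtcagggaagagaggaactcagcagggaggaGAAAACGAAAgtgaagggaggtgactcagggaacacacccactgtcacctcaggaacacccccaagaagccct
Of the 5 interferon-stimulated genes that fell, 4 had a promoter listed and 3 of these (Ifit1, Isg15 and Oas3) held the motif on either strand. Among all genes called lower with a promoter the share was 4.62%, among tested genes 2.93% and 3.04% over all promoters listed.

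In the integrated stress response list the largest fall was in Asns, asparagine synthetase (chromosome 6, 7675169 to 7693254). It had 64.2, 59.9 and 80.1 CPM at 6 h and 14.0, 15.7 and 26.6 at 24 h, without overlap, and stood at 8.02, 9.46 and 14.8 in vehicle. The log2 fold change was -1.87 (SE 0.26, adjusted p = 0.0197), and it was -1.03 (adjusted p = 0.605) with the reticulocyte covariate. Of 24 genes of the integrated stress response, in which amino acid or haem shortage leads to ATF4-driven transcription, Asns and Slc7a5 fell and the median was -0.36. Over all genes, 1.25% were called lower. Slc7a5, the light chain of the large neutral amino acid transporter, had -1.21 (SE 0.25, adjusted p = 0.0364). Its partner chain Slc3a2 (-0.80, adjusted p = 0.0757) and Mthfd2, of mitochondrial folate metabolism (-0.88, adjusted p = 0.0932), did not pass, and had 0.09 and 0.06 with the covariate. Atf4 (-0.43, adjusted p = 0.115) and Ddit3 (0.14, adjusted p = 0.735), named after their values were seen, did not pass either. Atf4 had 0.06 with library totals alone and Ddit3 -0.14 with the covariate. The Asns site is shown because its match to TGATGNAA, a composite element bound by ATF4 and C/EBP proteins, lies just before the RefSeq start. This stretch lies inside the GENCODE gene, and only 30 bases are printed.
Asns (GRCm38.p6 chr6:7693210-7693239, minus strand): agccacaTGATGAAActtcccgcacgcgtt
With library totals alone the median of the integrated stress response list was 0.14, or -0.42 relative to all genes. The motif, searched on both strands of 250 bases, was in 1.98% of tested genes' promoters and 0.769% of those called lower.

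Of the 4 Rag GTPase genes, whose products signal amino acid supply to mTORC1 at the lysosome, Rragd and Rraga fell. Rragd had 33.7, 41.8 and 46.4 CPM at 6 h and 9.20, 16.4 and 15.9 at 24 h (-1.56, SE 0.27, adjusted p = 0.0207). Rraga, named after its values were seen, had 31.8, 37.3 and 36.4 CPM at 6 h and 18.3, 22.3 and 21.3 at 24 h (-0.77, SE 0.16, adjusted p = 0.0378). In both genes 24 h replicate 1 had the lowest level at that time and replicate 2 the highest. The call of Rraga was lost in 11 of the 12 fits that left out 1 library. Rragb (-1.18, adjusted p = 0.287), at 0.469 to 2.44 CPM in these 6 libraries, and Rragc (0.23, adjusted p = 0.66, or -0.0034 with the reticulocyte covariate), both also named after their values were seen, did not pass.

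Rragd belongs to a set of 7 genes that stood above vehicle at 1, 6 and 24 h, and which was therefore chosen from these data. Of these, 4 were lower at 24 h than at 6 h: Slc4a5, Rragd, Scd1 and Runx1t1. Slc4a5, a sodium bicarbonate cotransporter (chromosome 6, 83219828 to 83304945), had 12.1, 17.1 and 27.1 CPM at 6 h and 4.89, 3.57 and 4.22 at 24 h, where vehicle had 0 to 0.537. Its 24 h values lay close together and close to the 1 h values of 5.17, 4.79 and 6.14. The log2 fold change was -2.15 (SE 0.44, adjusted p = 0.0324), with -2.47 (adjusted p = 0.605) under the reticulocyte covariate.

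Scd1, which puts a double bond into stearate and palmitate, went from 42.4, 44.8 and 64.3 CPM to 21.4, 24.0 and 24.4 (-1.12, SE 0.23, adjusted p = 0.0324). Runx1t1, a corepressor of the ETO family, went from 81.7, 92.0 and 106 CPM to 28.2, 51.0 and 54.5 (-1.07, SE 0.23, adjusted p = 0.0374). Both lay above every vehicle library at 24 h, but the set was chosen for standing above vehicle at that time, so this is no separate result. The other 3 did not pass: Mapre3 (-0.97, adjusted p = 0.0881), which binds microtubule ends, Hsd3b6 (-0.78, adjusted p = 0.367), a steroid dehydrogenase, and Car8 (-0.14, adjusted p = 0.861), a protein related to carbonic anhydrases. Hsd3b6 had 3.73, 7.47 and 22.2 CPM at 24 h, so that 1 library lay within the 6 h range of 14.9 to 22.7.

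The 3 lists that follow stand beside 1.25% called lower of all genes. Among 12 genes of bicarbonate transport and carbonic anhydrases, Slc4a1, Slc4a5 and Car2 fell. Car2, the main carbonic anhydrase of many cells and abundant in red cells, went from 4026, 3437 and 4407 CPM to 392, 871 and 1924 (-1.90, SE 0.41, adjusted p = 0.0392). Among 24 genes of fatty acid and glycerol lipid synthesis, Scd1, Pcx (-1.59, SE 0.34), which feeds oxaloacetate into the citric acid cycle, and Fads1 (-1.13, SE 0.22), a desaturase of polyunsaturated fatty acids, fell, while the list's median was 0.02. Antioxidant enzymes had 2 of 28 lower: Cat (-1.12), which breaks down hydrogen peroxide, and Gclm (-1.33), a subunit of the enzyme that starts glutathione synthesis. Car2, Pcx, Fads1, Cat and Gclm had their highest 24 h level in replicate 3, the library with the highest reticulocyte level at 24 h, and the part of reticulocytes in these values was not tested. With the reticulocyte covariate Car2 had -0.37 (adjusted p = 0.772).

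The other genes named for the largest falls were of mixed function. Rph3al, an effector of Rab GTPases in exocytosis, went from 30.8, 51.5 and 59.5 CPM at 6 h to 7.22, 7.36 and 14.5 at 24 h (-2.30, SE 0.31, adjusted p = 0.0189). Its call was lost in 3 of the 12 fits that left out 1 library. Cbr1, a carbonyl reductase, went from 24.0, 18.7 and 17.2 CPM to 5.36, 4.77 and 6.56 (-1.85, SE 0.26, adjusted p = 0.0197), with its 24 h libraries close together, and lost its call in 4. Serpini1, a serine protease inhibitor of neurons, had 80 counts over the 6 h libraries and 9 over the 24 h libraries (-3.19, SE 0.69, adjusted p = 0.04), and lost its call in 11. Atg4a, a protease of autophagosome formation (-1.91), the zinc finger gene Zfp966 (-1.87) and the translation initiation factor Eif5 (-1.76) were also among the 12 largest falls. Rph3al, Serpini1 and Eif5 overlap other genes.

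Genes higher at 24 h were fewer. Klf11, a repressor of the Krüppel-like family and a target of TGF-beta signalling (ENSMUSG00000020653, chromosome 12, 24651274 to 24662789), had 12.8, 13.4 and 13.4 CPM at 6 h and 39.5, 35.2 and 34.2 at 24 h. The groups lay far apart and each was tight. Vehicle had 34.6, 25.3 and 46.8 CPM, about the 24 h level, and at 6 h Klf11 was called lower than vehicle (-1.43, adjusted p = 0.0021). Between 24 h and 6 h it rose by 1.46 (SE 0.22, adjusted p = 0.0201), or 1.40 (adjusted p = 0.605) with the reticulocyte covariate. The related Klf10, named after its values were seen, had 26.0, 26.7 and 27.5 CPM at 6 h and 71.6, 60.3 and 59.1 at 24 h (1.25, SE 0.21, adjusted p = 0.0201).

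Lifr, the receptor subunit for leukaemia inhibitory factor (chromosome 15, 7090614 to 7197489), had 22.2, 28.1 and 20.7 CPM at 6 h and 57.5, 63.4 and 52.98 at 24 h (1.29, SE 0.20, adjusted p = 0.0201). All 24 h libraries were also above vehicle, at 36.1, 34.4 and 31.9, but that difference did not pass (0.76, adjusted p = 0.28). Among 34 cytokine receptors and JAK-STAT genes Lifr was the only one called higher, beside 0.508% higher and 1.25% lower of all genes. Pim1, a kinase induced by STAT proteins, was called lower (-0.74, SE 0.17, adjusted p = 0.0471). In this list 21 differences were positive, with a median of 0.26. All 24 h values lay above all 6 h values in 9 of the 34, beside 10.5% of all genes, and below them in 2, beside 12%. Il6st, the signalling subunit that pairs with Lifr, had 14.5, 18.3 and 11.8 CPM at 6 h and 45.6, 36.0 and 18.6 at 24 h, with 1.17 and an adjusted p of 0.0618, or -0.04 with the reticulocyte covariate.

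A pair of lipid genes rose, both named after their values were seen. Plin2, which coats lipid droplets, had 84.4, 92.0 and 115 CPM at 6 h and 237, 250 and 228 at 24 h (1.29, SE 0.21, adjusted p = 0.0201). Cpt1a, which admits fatty acids to mitochondria for oxidation, had 55.2, 52.4 and 57.8 CPM at 6 h and 128, 95.9 and 82.8 at 24 h (0.89, SE 0.16, adjusted p = 0.0269). Both were lower than vehicle at 6 h (-0.98, adjusted p = 0.014 for Plin2 and -0.71, adjusted p = 0.022 for Cpt1a). Also named in this way were Fcgr2b, the inhibitory Fc receptor (0.98, SE 0.16, adjusted p = 0.0201), Met, the receptor for hepatocyte growth factor (1.08, SE 0.20, adjusted p = 0.0269), and Setdb1, a histone H3 methyltransferase (1.03, SE 0.23, adjusted p = 0.0444).

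Of 9 MHC class II genes tested, Ciita rose, beside 0.508% called higher of all genes. In this list 8 differences were positive, with a median of 0.78. Ciita is the coactivator that switches on the class II genes. It had 4.93, 3.22 and 4.76 CPM at 6 h and 24.5, 14.0 and 11.1 at 24 h, and 18.6, 10.1 and 7.51 in vehicle. Its log2 fold change was 1.95 (SE 0.44, adjusted p = 0.0435), and 0.76 (adjusted p = 0.786) with the reticulocyte covariate, where the median of the MHC class II list was -0.15. Cd74, the invariant chain, had 1.02 (adjusted p = 0.0982) and H2-Eb1 1.05 (adjusted p = 0.129). Ciita overlaps Dexi on the opposite strand, and its call was lost in 10 of the 12 fits that left out 1 library. Cd74 and H2-Eb1 had -0.01 and -0.34 with the reticulocyte covariate. Among markers of antigen-presenting cells, of 22 classical monocyte genes 0 were called in edgeR (4 higher at an unadjusted p under 0.05, 2 in DESeq2), and 16 differences were positive. The median of the classical monocytes list was 0.16, and -0.03 with the covariate. Vcan had 1.11 (adjusted p = 0.055), and Csf1r 0.85 (adjusted p = 0.0994), or -0.36 with the covariate. The nonclassical monocytes list, with 1 of 18 genes lower beside 1.25% of all genes, had a median of 0.04 and 9 positive and 9 negative differences. The mean log2 CPM of the classical list was 6.40, 6.68 and 6.45 at 6 h and 6.93, 6.82 and 6.55 at 24 h. Their part in the class II values was not tested.

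The largest rises were in genes with few counts. Tdrd6, a germ cell tudor protein, had 2, 2 and 0 counts at 6 h and 83, 58 and 29 at 24 h (5.15, SE 1.11, adjusted p = 0.0392), and 1 h replicates 2 and 3 had 11.9 and 6.14 CPM. The neighbouring bitter taste receptor genes Tas2r143 and Tas2r135 on chromosome 6 had 10 and 40 counts over the 6 h libraries and 96 and 184 over the 24 h libraries (3.08 and 2.07). Both had 1.41 to 12.7 CPM at 24 h, the lowest in replicate 3. Arhgef37, a guanine nucleotide exchange factor, rose from 20.9, 27.8 and 13.9 CPM to 64.0, 44.2 and 67.8 (1.49, SE 0.25, adjusted p = 0.0201).

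The named rises also included Mettl17 (2.66), a mitochondrial ribosome assembly factor, Disc1 (2.30), a scaffold protein, Ap4m1 (1.74), of an adaptor complex, Cad (1.56), which starts pyrimidine synthesis, and Trim3 (1.53), a ubiquitin ligase. Mettl17, Disc1, Ap4m1 and Trim3 overlap other genes. Ttn, the giant muscle protein, was the only called gene whose groups overlapped and is named for that, with 287, 261 and 8 counts at 24 h and 9, 20 and 0 at 6 h (4.03, SE 0.92, adjusted p = 0.0452). Noncoding genes made up 14 of the 68 higher genes (20.6%) and 3 of the 167 lower ones (1.8%), beside 12.5% of the genes tested.

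**Figure D4:**
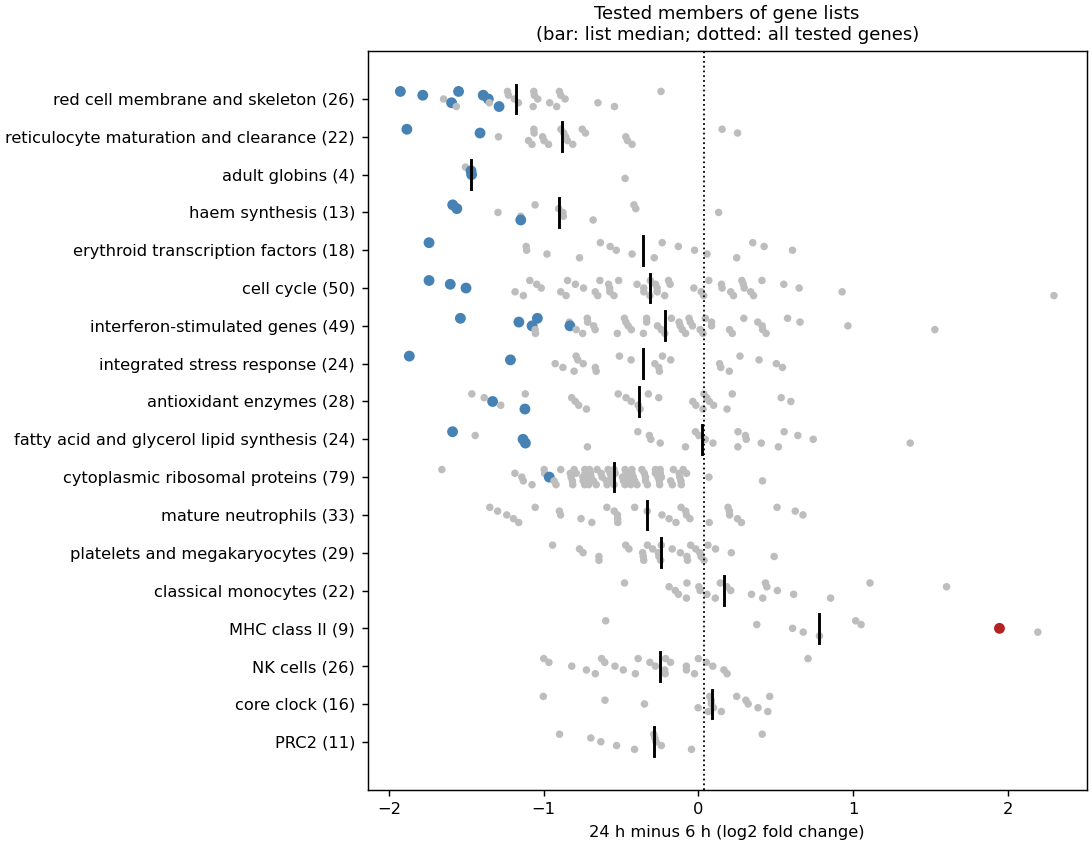
Log2 fold changes between 24 h and 6 h of the tested members of 18 gene lists (number tested in parentheses); called genes are blue (lower) or red (higher), bars are list medians and the dotted line is the median of all genes, 0.04. Red cell membrane genes have a median of -1.18 with all 26 values below 0, and MHC class II genes a median of 0.78.

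Lists of other blood cells held few or no called genes, beside 1.76% of all genes called, so 0 calls in lists of this size say little about these cells. Of 33 mature neutrophil genes, 26 NK cell genes and 29 platelet genes 0 were called in each by edgeR, with medians of -0.33, -0.25 and -0.24 and 15, 7 and 4 genes at an unadjusted p under 0.05. In DESeq2, 5 neutrophil, 2 platelet and 1 NK cell gene were called lower and 1 NK cell gene higher. Over all 13384 genes, 2957 had an unadjusted p under 0.05 in edgeR, and DESeq2 called 733 lower and 392 higher. All 24 h values lay below all 6 h values in 10 neutrophil, 8 NK cell and 2 platelet genes, beside 12% of all genes, and above them in 2, 1 and 0, beside 10.5%. The median of the platelets and megakaryocytes list was 0.01 without 24 h replicate 1, -0.11 without 6 h replicate 1, -0.16 without 24 h replicate 2, -0.55 without 24 h replicate 3 and 0.40 with the reticulocyte covariate. That of the mature neutrophils list was -0.16 without 6 h replicate 3, -0.50 without 6 h replicate 1 and -0.12 with the covariate. Of 79 cytoplasmic ribosomal protein genes 77 differences were negative, with a median of -0.55, and Rpl23 fell (-0.96, SE 0.22, adjusted p = 0.0452). Without 24 h replicate 3, 51 of the 79 cytoplasmic ribosomal proteins were called lower, beside 1432 of all 14089 genes, and the median was -0.83. Leaving out either of the other 24 h libraries or any 6 h library gave 0 calls, with a median of -0.33 without 24 h replicate 1, and the covariate gave 0 calls and a median of 0.10. Of 50 cell cycle genes E2f2, Ube2c (-1.50), which targets cyclins for destruction, and Nusap1 (-1.60), a spindle protein, fell, and the median was -0.31. All 3 were below the 6 h libraries in every 24 h library, and highest at 24 h in replicate 3. Scaled by library totals alone, the medians of the mature neutrophils, NK cells, platelets and megakaryocytes and cell cycle lists turned positive, at 0.19, 0.26, 0.20 and 0.12, which is -0.38, -0.30, -0.37 and -0.44 relative to the median of all genes.

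Genes of the target complex itself did not pass. Ezh2, a catalytic subunit of PRC2, had 438, 414 and 372 CPM at 6 h and 86.5, 180 and 391 at 24 h, where replicate 3 lay within the 6 h range (-0.90, SE 0.36, adjusted p = 0.163). Ezh1, the other catalytic subunit, had -0.04 (adjusted p = 0.921), Eed -0.28 (adjusted p = 0.449) and Suz12 -0.69 (adjusted p = 0.124). Of 11 PRC2 genes tested 0 were called in edgeR, with 3 at an unadjusted p under 0.05, 1 called lower in DESeq2 and a median of -0.29 (0.17 with library totals alone). Of 21 PRC1 genes 0 were called, with 4 at an unadjusted p under 0.05, 1 called lower in DESeq2 and a median of 0.19. Over all 13384 genes, 2957 had an unadjusted p under 0.05 in edgeR and DESeq2 called 1125. RNA levels do not measure the enzymes' activity. Of 16 core clock genes and 23 glucocorticoid response genes 0 were called in edgeR, with 1 and 4 at an unadjusted p under 0.05, 1 and 0 in DESeq2, and medians of 0.09 and 0.01. Csnk1d, a clock kinase, had the smallest p of the clock genes (-0.60, adjusted p = 0.059).

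**Figure D5:**
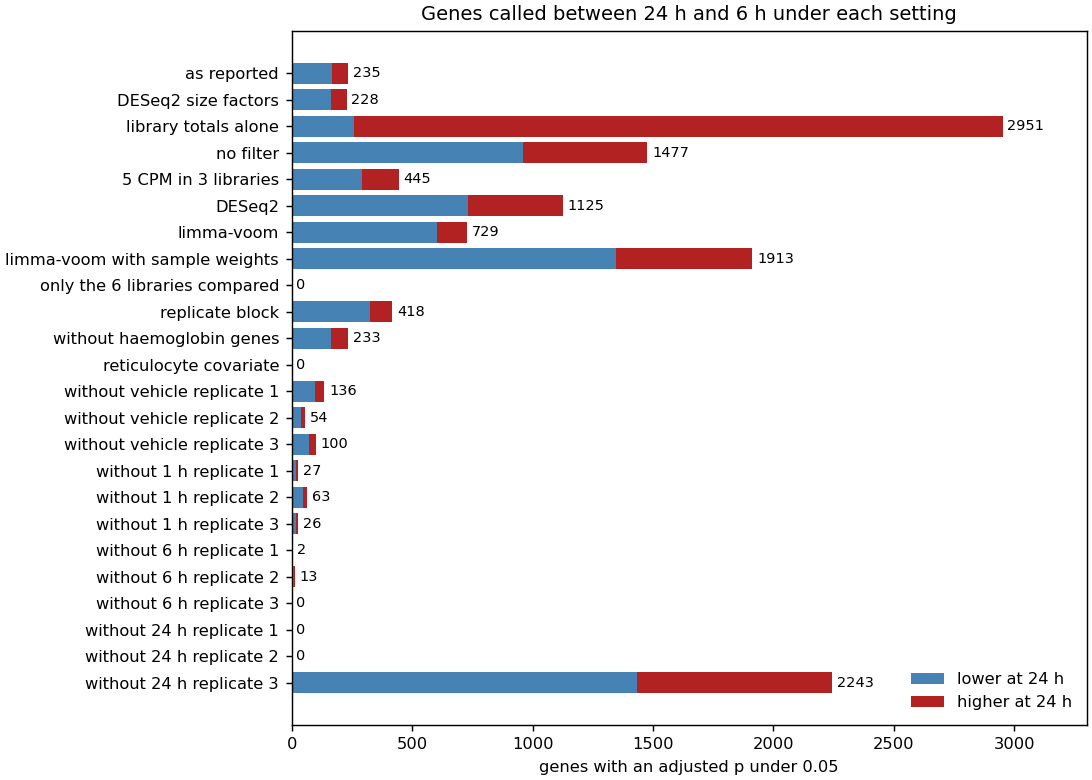
Number of genes called lower (blue) and higher (red) between 24 h and 6 h in edgeR as reported and under each alternative (bars from 0, total at the end). The count is 235 as reported, 2243 without 24 h replicate 3 and 2951 with library totals alone, where most calls are higher, and 0 in 5 of the settings.

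Compared with vehicle in the same fit, 648 genes (4.84%) were called at 6 h, 543 (4.06%) of them higher and 105 (0.785%) lower, and 14 (0.105%) at 24 h, all higher. The comparisons share libraries, so their calls are set side by side only. Against 1 h, 24 h had 0 genes higher and 3 (0.0224%) lower in edgeR, and 6 h had 66 called (0.493%), 18 (0.134%) higher and 48 (0.359%) lower. Slc4a1 had 2.13 (adjusted p = 0.0021) at 6 h and 0.54 (adjusted p = 0.7) at 24 h against vehicle, Isg15 1.68 (adjusted p = 0.002) and 0.15 (adjusted p = 0.93), and Asns 2.67 (adjusted p = 0.00014) and 0.80 (adjusted p = 0.46). For the genes higher at 24 h than at 6 h, Plin2 had -0.98 and 0.32 and Klf10 -1.13 and 0.12. With 3 libraries in each group and the wide spread at 24 h, a difference from vehicle at 24 h that did not pass does not show that the levels were the same.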

How the data were processed

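Counts per gene came from a deposited table of 12 libraries and 55367 mouse Ensembl genes. The authors deposited whole-number counts, not scaled to library size. Their submitters' processing notes name RSEM and the build hg38, so counts may be rounded estimates. No source used here gives the aligner, the annotation or the strand. Per the labels' protocols, RNA was extracted with a PAXgene kit and depleted of ribosomal RNA before paired-end sequencing. Positions came from GENCODE M21 (GRCm38), which held 55111 of the gene IDs.

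Counts were tested with edgeR 4.0.16 (quasi-likelihood, TMM, filterByExpr by group, 4 group means, all 12 libraries) in R 4.3.3, with Benjamini-Hochberg adjustment over 13384 genes and a threshold of 0.05. Every adjusted p is from this fit unless another tool or setting is named. Levels are CPM on TMM-scaled sizes, and list means are log2 CPM (prior count 2). The smallest two-sided p of an exact permutation test of 3 against 3 is 0.1. SE is the absolute log2 fold change divided by the root of F.

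The 46 gene lists, the motifs and the comparison were chosen with earlier results of these data known. Named genes were the 12 largest rises and 12 largest falls among called genes without overlap, with a mean log2 CPM of at least 1 and no predicted name, the PRC2 core, up to 4 members with the smallest p of each list described, and the set of 7. Others are marked as named after their values were seen. Some results that this rule would name are left out and not reported here. The scripts were tested on simulated data with known changes. Alternatives, which used limma 3.58.1 and DESeq2 1.42.0 as well, changed the scaling, the filter, the tool, the libraries in the fit and the covariates, 1 at a time, except that 1 alternative changed the tool and weighted the libraries (limma-voom with sample weights).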

Additional observations from a re-analysis of the deposited data

How the results depend on the processing

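The count of 235 (68 higher, 167 lower) was 228 (63 and 165) with DESeq2 size factors and 233 (68 and 165) without the haemoglobin genes. It was 445 (155 and 290) with a filter of 5 CPM in 3 libraries, 1477 (515 and 962) with no filter, 1125 (392 and 733) in DESeq2, 729 (127 and 602) in limma-voom and 1913 (565 and 1348) in limma-voom with sample weights. Library totals alone gave 2951 (2692 and 259), of which 91.2% were higher against 28.9% as reported, with the median of all genes at 0.56. The 6 libraries alone and the reticulocyte covariate gave 0 (0 and 0) each. The cause of these differences was not tested. Leaving out 1 library gave 0 to 2243 called genes, 0 to 811 higher and 0 to 1432 lower. Vehicle replicates 1, 2 and 3, each left out in turn, gave 136, 54 and 100 calls, and those of 1 h gave 27, 63 and 26. Depth limits the largest fold changes: Tdrd6, with 4 counts over the 6 h libraries, ran from 4.43 to 5.70 over the alternatives.

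With the replicate number as a block the count was 418 (93 higher, 325 lower), of which 228 were among the 235. Deviations of same-numbered 24 h and 6 h libraries from their group means correlated at -0.05, 0.03 and 0.09, so the numbers were not taken to pair the libraries.

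Ttn, which was called, had -0.01 with the covariate. Among the genes named for the largest changes, the PRC2 core and the set of 7, direction changed in 5, none of them called in the fit as reported. Ezh2 had 0.48 with the covariate and -1.62 at the lowest over the alternatives. It was called lower in 1 of the 12 fits that left out 1 library. Ezh1 ran from -0.15 to 0.13 over the fits that left out 1 library, and had 0.46 with library totals alone, and 0.10 with the covariate. Eed had 0.19 with library totals alone and 0.31 with the covariate. Car8 had 0.41 with library totals alone and 0.13 in limma-voom with sample weights, and ran from -0.38 to 0.20 over the fits that left out 1 library. Hsd3b6 had 1.03 with the covariate, and was called lower in 1 of the 12 fits that left out 1 library. Other uncalled genes whose direction changed have that value beside them in the text. The sign of the median changed in 27 of the 46 lists with the covariate, in 23 with library totals alone, and in 15 in at least 1 fit that left out a library.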

Other observations

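Single genes were called in several other lists, beside 1.76% of all genes. Of 27 heat shock and chaperone genes, Dnajb2, which hands clients to Hsp70 (-1.44, SE 0.34, adjusted p = 0.0482), and Bag1, an Hsp70 exchange factor (-0.97, SE 0.22, adjusted p = 0.0409), were lower at 24 h, with a median of -0.07. Of 21 CDK inhibitors and p53 targets, 10 had all 24 h values below all 6 h values, beside 12% of all genes. In 3 they lay above, beside 10.5%. Gadd45a, a growth arrest gene, was the only one of the 21 called. It had 119, 118 and 126 CPM at 6 h and 39.8, 44.0 and 78.8 at 24 h (-1.16, SE 0.22, adjusted p = 0.0269). Jund, of the AP-1 family, was the only one of 26 immediate early genes, with 117, 125 and 108 CPM at 6 h and 74.5, 64.0 and 74.7 at 24 h (-0.72, SE 0.15, adjusted p = 0.0324). At 24 h its replicate 3 was the highest by a small margin and replicate 2 the lowest. The part of reticulocytes in these values was not tested. As for every gene, the call of Jund was lost with the reticulocyte covariate. Of 18 nonclassical monocyte genes, Cd36, a fatty acid receptor, was lower (-1.52, SE 0.35, adjusted p = 0.0452), with 102, 185 and 402 CPM at 24 h, and of 19 secondary granule genes Ceacam10 was lower (-1.74, SE 0.41, adjusted p = 0.0482).

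Fbl, the methyltransferase of ribosomal RNA, was higher at 24 h among 35 ribosome biogenesis genes, whose median was 0.32. It had 5.82, 5.69 and 6.30 CPM at 6 h and 13.4, 15.1 and 11.1 at 24 h (1.15, SE 0.26, adjusted p = 0.0447). The ribosomal proteins themselves had a median of -0.55. Sf3b2, of the spliceosome, was higher among 41 splicing factors (0.95, SE 0.22, adjusted p = 0.0477), whose median was -0.06. In edgeR 0 genes were called among 44 nuclear oxidative phosphorylation genes (median -0.34), 12 mitochondrial mRNAs (-0.28), 38 proteasome genes (-0.18), 49 histone genes (0.16), 20 cholesterol synthesis genes (0.02) and 23 inflammatory mediators (-0.17). The same held for lists of 14 T cell, 6 B cell, 14 dendritic cell, 9 basophil, 7 eosinophil, 7 primary granule and 14 stem and progenitor genes, 7 homeobox genes, 5 endothelial and stromal genes and 1 hepatocyte gene that passed the filter on low counts. Over these 16 lists 53 of 266 genes had an unadjusted p under 0.05, as had 2957 of all 13384 genes. DESeq2, which called 733 of all genes lower and 392 higher, called 6 proteasome and 5 oxidative phosphorylation genes lower. In each of the other lists it called at most 1 gene. The nearest to a call was Clec10a, a lectin of dendritic cells and macrophages, with 0.299, 0.495 and 0.257 CPM at 6 h and 2.56, 2.60 and 0.938 at 24 h (2.50, SE 0.60, adjusted p = 0.0507).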
